A study of Mus musculus with 12 samples.

Results

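Colon epithelium was set against colon lamina propria, the connective tissue under the epithelium, for CD4 T cells recovered from mice that had received Th1 cells. T helper 1 (Th1) cells are CD4 T cells that make interferon gamma. Both kinds of donor cell carry an eGFP allele at Il23r, the gene of the interleukin-23 receptor: the control cells are Il23r wt/eGFP and keep 1 working copy, and the KO cells are Il23r eGFP/eGFP. The series also holds spleen and small intestine lamina propria, 12 libraries in all, and was made to study what this receptor does in Th1 cells. The strain, age and remaining lymphocytes of the recipient mice, and the number of animals behind each library, are not given in the sources used here, so p-values measure the spread between these samples, which may be technical.

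Colon epithelium was sampled only in batch 2, so 4 libraries entered the comparison, all with replicate number 2: lamina propria control, lamina propria KO, epithelium control and epithelium KO. Cells were kept when the counts of Cd3d, Cd3e and Cd3g, which encode the invariant CD3 chains of the T cell receptor complex, summed to at least 3 unique molecular identifiers (UMIs, 1 per captured transcript). This left 13455 of the 14180 cells in the 4 libraries, out of 32763 cells in the whole series. They came as 3246 cells from lamina propria control, 3260 from lamina propria KO, 3653 from epithelium control and 3296 from epithelium KO. Each combination of tissue and genotype is 1 library, so the test rests on 2 tissue pairs, 1 per genotype, and measures how well those pairs repeat each other. The labels give 1 isolation protocol for all intestinal T cells, built on a lamina propria dissociation kit. How the epithelial fraction was released is not stated in those sources, so tissue and preparation cannot be told apart.

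T cells of the gut epithelium sit between the epithelial cells, and many of them bind E-cadherin through the integrin αE (CD103, Itgae) paired with β7. They are known for granzymes and for receptors shared with natural killer (NK) cells, among them Cd160. T cells of the lamina propria lie among macrophages, stromal cells and nerves, and are known for cytokines such as interleukin-17 and interleukin-22. Tissue-resident T cells of both sites hold down the genes that would return them to blood and lymph, such as S1pr1, Klf2 and Ccr7.

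Depth was similar across the 4 libraries, at 8291725 to 11568743 UMIs over the kept cells and a median of 2327.5 to 2917 UMIs per cell. Cd3d, Cd3e and Cd3g lay between 852 and 2280 CPM (counts scaled to a common library size), a level that the rule on cells fixes. Of the markers of the labelled cell type that the rule did not use, Cd4 measured 230 and 293 CPM in lamina propria control and KO and 279 and 358 CPM in epithelium control and KO. Transcripts of the T cell receptor constant regions were not used here. The CD3 rule kept 96.8% of cells in lamina propria control, 89.0% in lamina propria KO, 98.4% in epithelium control and 95.5% in epithelium KO. Any pair of the libraries shared 12 to 23 cell barcodes, at most 0.7% of the smaller library. Il23r itself measured 1.74 and 2.37 CPM in lamina propria control and KO and 0.576 and 0.291 CPM in epithelium control and KO. Reads come from transcript 3′ ends, which an upstream allele can leave in place, so this checks no genotype label. Those Il23r levels rest on 19, 18, 7 and 3 UMIs in the same order. Il23r was called lower in epithelium by the test given below (log2 fold change -2.14 ± 0.5, adjusted p = 0.0425 by edgeR, up to 0.339 over 13 alternatives). When a library was left out, its log2 fold change ran from -2.76 to -1.2.

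Among 10724 genes tested, 848 (7.91%) were higher in epithelium and 1200 (11.2%) were lower, 2048 (19.1%) in all, by edgeR's quasi-likelihood test on UMIs summed per library, with genotype as a block and a Benjamini-Hochberg adjusted p under 0.05. The median log2 fold change over all genes was 0.02. Counts over gene lists are to be read against these shares. Of the genes that passed, 2039 lay on the same side in the control pair and in the KO pair. Over all 10724 genes tested, 8251 did. The test itself rests on agreement between the 2 pairs, so this count is no separate check of the calls. Among the genes that passed, 264 higher and 465 lower ones differed by at least 1 on the log2 scale. With 4 libraries and 1 residual degree of freedom the count rests on each library: without the genotype block 153 genes were higher and 359 lower. When 1 library at a time was also left out, 0 to 76 were higher and 0 to 276 lower, with 0 both ways and 1759 at an unadjusted p under 0.05 when epithelium KO was the one left out. DESeq2 called 180 higher and 560 lower. Of 125 genes named with a call in the text, 122 kept their direction in every fit run (all but Klf2, Tyrobp and Fcer1g), and 42 passed in all 14 alternatives that left no library out and in all 4 fits over the 12 libraries of the series that left one of the colon libraries out. A further count shows the other extreme: 62 of the 125 passed in none of the 4 fits that left out a library without the block.

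**Figure D1:**
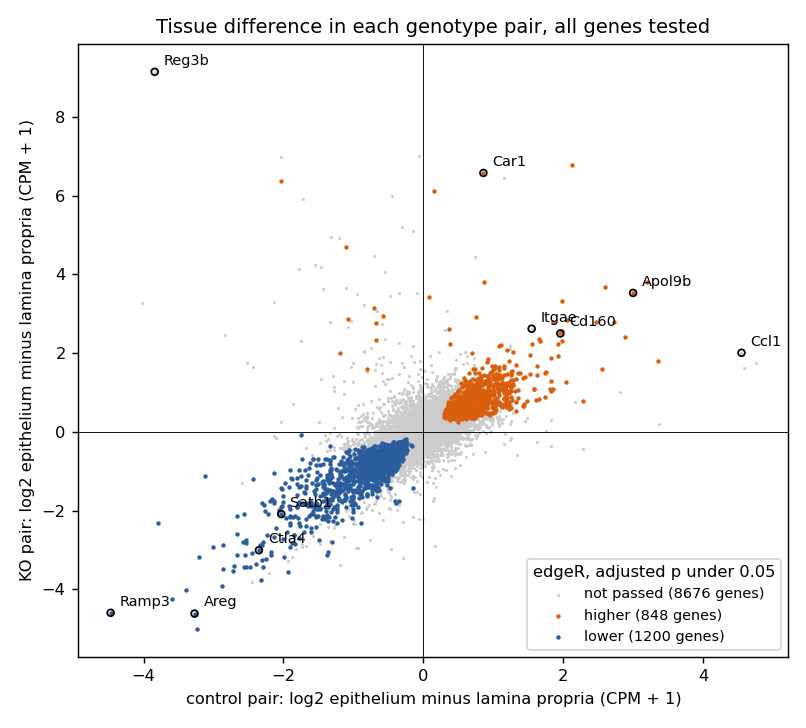
Each point is 1 of the 10724 genes tested, with the log2 difference of epithelium minus lamina propria (CPM plus 1) in the control pair on the horizontal axis and in the KO pair on the vertical axis. Orange points passed as higher in epithelium and blue points as lower; most lie in the quadrants where both pairs point the same way, and Reg3b and Car1 stand out in the KO pair.

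The genes that mark intraepithelial T cells were all higher in epithelium than in colon lamina propria, and only Cd160 passed the test. Cd160 (chr3:96798763-96829351, mm10, minus strand), which encodes a receptor of cytotoxic and intraepithelial lymphocytes, measured 95.8 CPM in lamina propria control and 37.2 in lamina propria KO, against 375 in epithelium control and 215 in epithelium KO. Both epithelial libraries lay above both lamina propria libraries, as they did for 29.2% of all genes tested. The log2 fold change was 2.24 ± 0.16 (SE, adjusted p = 0.00608 by edgeR), a 3.91-fold difference in the control pair and 5.77-fold in the KO pair. The call ended without the genotype block (adjusted p = 0.117, within a range of 2.73e-21 to 0.117 over 14 alternatives) and when any 1 of the 4 libraries was left out.

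Itgae (chr11:73090583-73147446, plus strand) measured 64.5 and 24.3 CPM in lamina propria control and KO and 191 and 155 CPM in epithelium control and KO. The groups did not overlap, but the lamina propria libraries were spread further apart than the epithelial ones. The log2 fold change of 2.08 ± 0.36 did not pass (adjusted p = 0.0633, 0.13 at the highest and 1.65e-09 by DESeq2 at the lowest of 14 alternatives). Gzma (chr13:113093825-113100981, minus strand), the gene of the granule protease granzyme A, measured 1860 and 704 CPM in lamina propria and 4380 and 3200 CPM in epithelium, control then KO. Its log2 fold change of 1.71 ± 0.35 did not pass either (adjusted p = 0.124, from 1.87e-10 to 0.199 over 14 alternatives). For all 3 genes the KO library of the lamina propria was the lowest of the 4, and the difference was larger in the KO pair than in the control pair. Small intestine lamina propria control, outside the comparison, stood near the epithelial libraries at 156 CPM of Itgae, 291 of Cd160 and 3400 of Gzma. Its KO library stood at 45.2, 62.0 and 735 CPM. The CD3 rule kept 813 cells of that KO library, 50.6% of its cells, against 2069 cells and 92.0% in small intestine control. In the same unscaled CPM, epithelium control and KO measured 201 and 167 for Itgae, 393 and 232 for Cd160, and 4600 and 3450 for Gzma.

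At the level of cells, markers were compared after each cell was thinned to 1500 UMIs, because depth alone moves the share of cells with a UMI. Shallower cells were left out, 155 and 584 in lamina propria control and KO and 328 and 336 in epithelium control and KO. Itgae was then seen in 8.44% (95% exact binomial interval 7.49 to 9.48) of lamina propria control cells, 2.8% of lamina propria KO cells, 23.9% of epithelium control cells and 20.6% of epithelium KO cells. Cd160 was seen in 9.61%, 3.85%, 35.6% and 21.2% of cells in the same order, and Gzma in 32.9%, 21.6%, 53.4% and 38.3%. Intervals cover counting error only. Among epithelium control cells, 65.5% of those with an Itgae UMI held Gzma, against 49.6% of the rest, and in epithelium KO the shares were 53.7% and 34.4%. The same direction was seen in lamina propria, at 41.0% against 32.1% in control and 32.0% against 21.3% in KO. The same transcripts were counted in 50 cells of epithelium KO with no CD3 UMI and with epithelial markers (median 2234.5 UMIs, against 2535.5 in the T cells). Of these, 0.0% held Itgae, 2.0% Cd160 and 12% Gzma before thinning, where the T cells of that library stood at 29.9%, 29.6% and 44.5%. Choosing cells without a CD3 UMI also favours cells with little free T cell RNA, so these shares may understate what free RNA gives. No such cells were counted in the lamina propria libraries. The exact binomial upper limit for Itgae in those 50 cells was 7.11%. They held Ramp3, Il22 and Cd8a at 0.0%, Ccl4 at 4.0%, Areg at 6.0%, Cxcr6 at 12%, Tnfaip3 at 14% and Ccl5 at 60%. The T cells of that library stood at 86.6% for Cxcr6 and 92.6% for Ccl5 before thinning.

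**Figure D2:**
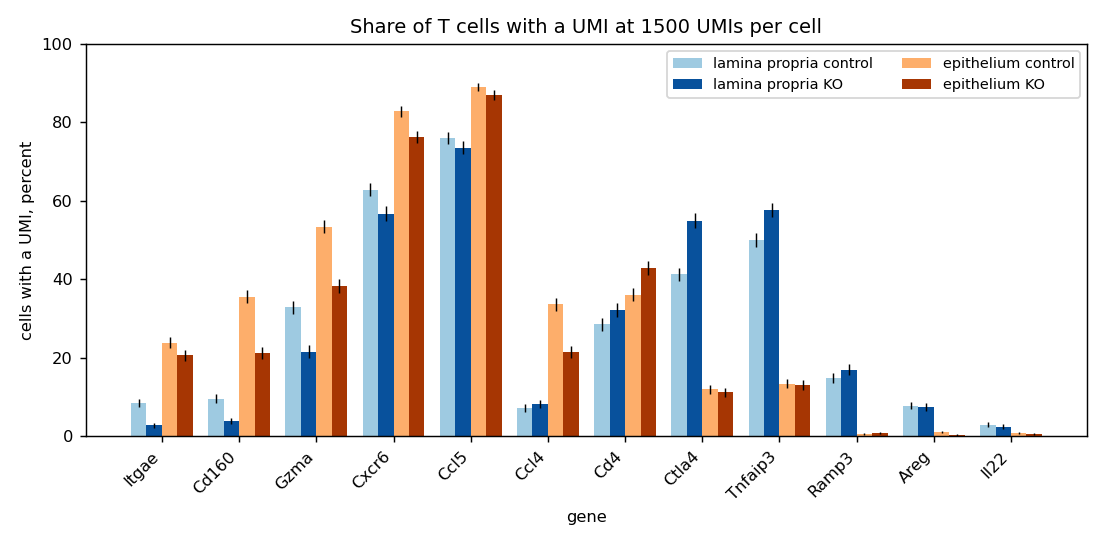
Bars give the percent of T cells with at least 1 UMI of each gene (horizontal axis) after thinning to 1500 UMIs per cell, for the 4 libraries by colour, with 95% exact binomial intervals that cover counting error only. Itgae, Cd160, Gzma and Ccl4 are seen in more cells of both epithelial libraries, and Ctla4, Tnfaip3, Ramp3 and Areg in more cells of both lamina propria libraries.

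The 15 largest differences each way were taken among genes that passed, averaged at least 20 CPM and differed by at least 0.5 (log2) in both pairs. Of the 15 on the epithelial side, 2 are genes of colon epithelial cells and 1 is Cd160, described above. Apol9b, an apolipoprotein L family gene, measured 4.48 and 2.63 CPM in lamina propria control and KO and 42.8 and 41.0 in epithelium control and KO (log2 fold change 3.54 ± 0.20, adjusted p = 0.00363 by edgeR). Cd200r1, an inhibitory receptor for CD200, measured 10.6 and 13.4 CPM against 42.8 and 53.7 CPM (2.01 ± 0.12, adjusted p = 0.00363). Gfi1, a transcriptional repressor of lymphocyte and myeloid development, measured 11.8 and 12 CPM against 44.0 and 46.5 CPM (1.93 ± 0.12, adjusted p = 0.00375). In each of these 3 the 2 epithelial libraries were close to each other and far above both lamina propria libraries.

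Plekhf1 (2.52), Armc7 (1.94), Klhl25 (1.81), Osgin1 (1.57), Rgs3 (1.47, a brake on G protein signalling), Amica1 (1.47, an adhesion molecule that binds the epithelial receptor CAR), Dusp2 (1.45, a phosphatase of MAP kinases), Abi3 (1.45) and Mgat1 (1.42, an enzyme of N-glycan synthesis) were higher too, given as log2 fold changes. Amica1 measured 65.5 and 123 CPM in lamina propria control and KO and 233 and 264 CPM in epithelium control and KO. In libraries that played no part in choosing them, the 15 genes showed no common side: 5 were higher and 4 lower in both small intestine lamina propria libraries than in both spleen libraries of batch 2, where 24.7% of all tested genes were higher and 39.3% lower, and 4 were higher and 6 lower in batch 1 colon lamina propria than in spleen, where 24.5% of genes were higher and 52.5% lower.

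The 2 remaining genes of the 15, Mptx1 and Car1, are genes of colon epithelial cells, and their size came from 1 library. Car1, a carbonic anhydrase of surface colonocytes, measured 0.365 and 0.132 CPM in lamina propria control and KO, 1.48 CPM in epithelium control and 108 CPM in epithelium KO. Mptx1, a mucosal pentraxin, measured 0.0913, 0, 3.79 and 110 CPM in the same order. Of 20 epithelial marker genes tested, 6 were higher and 0 lower, with a median log2 fold change of 2.29, against 7.91% and 11.2% of all genes. The 24 markers of the list, tested or not, summed to 198 CPM in lamina propria control, 25.8 in lamina propria KO, 60.6 in epithelium control and 1750 in epithelium KO, so the 2 pairs ran opposite ways. Reg3b, an antimicrobial lectin of epithelium, measured 76.8 and 4.45 CPM in the control pair and 0.132 and 640 CPM in the KO pair, lamina propria first. Cells with a Krt8 UMI made up 0.4%, 0.184%, 1.09% and 4.67% of the kept cells in the same order of libraries. Cells that held any UMI of 7 genes of other cell types were left out in an alternative, which gave 934 higher and 1300 lower genes.

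Cytotoxic granule genes split in both directions, with 6 of 22 tested members higher and 5 lower (median log2 fold change 0.12), against 7.91% and 11.2% of all genes. Ccl5, a chemokine of cytotoxic and Th1 cells, was the most even of them, at 9380 and 7910 CPM in lamina propria control and KO and 16500 and 13800 CPM in epithelium control and KO (0.81 ± 0.04, adjusted p = 0.0026). The cathepsins Ctsd (0.84) and Ctsw (0.61), the cathepsin inhibitor Cst7 (0.55), granzyme K (Gzmk, 0.46) and perforin (Prf1, 1.45, at 1.74 and 1.32 CPM against 4.03 and 4.56 CPM) were higher as well. Granzyme B (Gzmb), the main apoptosis-inducing granzyme, was lower: 934 and 912 CPM in lamina propria and 670 and 703 CPM in epithelium, control then KO (-0.42 ± 0.07, adjusted p = 0.018, and up to 0.129 over 14 alternatives). The granzyme B inhibitor Serpinb9 was lower too, at 248 and 306 CPM against 46.6 and 28.9 CPM (-2.89 ± 0.32), and so were Serpinb6b (-1.57), the granule fusion gene Stx11 (-1.80) and the granule proteoglycan gene Srgn (-0.61).

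Receptors shared with NK cells also split, with 9 of 22 tested members higher and 6 lower (median 0.48), against 7.91% and 11.2% of all genes. Cd244, which encodes the 2B4 receptor, measured 3.56 and 2.89 CPM in lamina propria control and KO and 29.2 and 26.1 CPM in epithelium control and KO (3.09 ± 0.17, adjusted p = 0.00352 by edgeR). Both colon lamina propria libraries of batch 2 lay far below. Small intestine lamina propria stood at 16.4 CPM in control and 1.05 CPM in KO (unscaled), the KO value from only 813 cells. Crtam, an adhesion receptor of cytotoxic T cells (2.01), Cd226, the activating receptor DNAM-1 (1.05), Slamf7 (1.09) and Klrd1, which encodes CD94 (0.52), were higher. On the other side were Tigit, the inhibitory rival of Cd226 (16.1 and 19.2 CPM against 3.54 and 3.01 CPM; -2.40 ± 0.20, adjusted p = 0.00563), Lilr4b (-1.41), Klrc1, which encodes NKG2A (-1.01), and Klrk1, which encodes NKG2D (-0.76). The list also counts Tyrobp and Fcer1g as higher, although both were lower in epithelium in the control pair and took the other sign with DESeq2 (-0.77 and -0.14): Tyrobp measured 1.46 and 0.0823 CPM there and 7.23 and 31.9 CPM in the KO pair. Cd7, at 216 and 87.2 CPM against 514 and 376 CPM, missed the threshold (1.67 ± 0.27, adjusted p = 0.0502).

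Cd8a, the gene of the CD8α chain, was higher in epithelium while the gene of the CD8β chain was not called. Cd8a measured 1.74 and 0.789 CPM in lamina propria control and KO and 9.80 and 17 CPM in epithelium control and KO (3.24 ± 0.42, adjusted p = 0.0168). Cd8b1 measured 3.56 and 3.42 CPM against 4.2 and 3.3 CPM (0.12, adjusted p = 0.769). The Cd8a signal came from few cells: 1.29% of epithelium control cells and 1.66% of epithelium KO cells held a Cd8a UMI at 1500 UMIs, against 0.291% and 0.112% in lamina propria (1.89%, 2.43%, 0.308% and 0.123% before thinning). Among the Cd8a cells, 9 of 43 in epithelium control and 16 of 49 in epithelium KO also held a Cd4 UMI, and 1 and 2 of them held a Cd8b1 UMI.

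Genes of integrins and tissue residency did not move as a block, with 6 of 26 tested members higher and 6 lower (median 0.16), against 7.91% and 11.2% of all genes. Cxcr6, a chemokine receptor of resident T cells, measured 889 and 846 CPM in lamina propria control and KO and 1520 and 1220 CPM in epithelium control and KO (0.65 ± 0.08, adjusted p = 0.0127). The collagen receptor gene Itga1 (0.87) and the β2 integrin gene Itgb2 (0.58) were higher, while Itga4 (-0.66), Itgb1 (-0.64) and Itgav (-1.0), which encode α4, β1 and αV chains, were lower. Itgb7, the partner chain of Itgae, measured 554 and 519 CPM against 627 and 544 CPM (0.13, adjusted p = 0.266). The residency genes Cd69 (0.03, adjusted p = 0.923) and Ahr (-0.02, adjusted p = 0.943) were not called, and the sign of each turned in some alternatives.

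Genes of egress and central memory were lower in epithelium, with 17 of 23 tested members lower and 1 higher (median -0.80), against 11.2% and 7.91% of all genes. Satb1, a chromatin organiser of T cells, measured 384 and 166 CPM in lamina propria control and KO and 93.4 and 38.0 CPM in epithelium control and KO (-2.08 ± 0.09, adjusted p = 0.0026), and Klf3 90.3 and 96.1 CPM against 18.3 and 14.9 CPM (-2.48 ± 0.14, adjusted p = 0.00352). S1pr1, the receptor that draws T cells into lymph, measured 87.6 and 38.3 CPM against 47.4 and 18.2 CPM (-0.96 ± 0.11). The KO libraries were the lower ones in both tissues, so the tissues overlap for S1pr1 and are parted only within each pair. Klf2, which drives S1pr1, had the same form (648 and 350 CPM against 480 and 233 CPM, -0.51 ± 0.08), but its call was lost without the genotype block (-0.48, adjusted p = 0.578 by edgeR) and in every fit that left out a library. It was at 0.01 without lamina propria control and without the block. Ccr7 (60.5 and 16.2 CPM against 3.46 and 2.43 CPM, -3.60), Gpr183 (-2.03), Slamf6 (-1.04), Tcf7 (-0.80) and Il7r (-0.53) were lower. Id3 was the 1 member on the other side (1.12).

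Apart from Mptx1 and Car1, the largest of the differences selected each way were on the lamina propria side. Ramp3 (chr11:6658521-6677475, plus strand), which encodes a partner chain of the receptors for adrenomedullin and related peptides, measured 132 CPM in lamina propria control and 173 in lamina propria KO, against 5.02 in epithelium control and 6.21 in epithelium KO. This is 26.4-fold in the control pair and 27.9-fold in the KO pair (log2 fold change -4.76 ± 0.12, adjusted p = 0.000866 by edgeR, at most 0.0134 over 14 alternatives). Over the 12 libraries the call was lost when either epithelial library was left out. At 1500 UMIs, 14.8% and 16.9% of lamina propria cells held Ramp3, against 0.571% and 0.811% of epithelial cells (23.8%, 24.4%, 1.45% and 1.49% before thinning). Areg, the gene of the tissue repair factor amphiregulin, measured 97.1 and 114 CPM against 9.14 and 3.69 CPM (-4.05 ± 0.50, adjusted p = 0.0449, up to 0.101 over 14 alternatives). Within the lamina propria, 13.3% of control cells with Ramp3 held Areg, against 6.88% of cells without it, and 11% against 6.7% in KO.

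Vps37b, a component of the ESCRT-I sorting complex, measured 620 and 917 CPM in lamina propria control and KO and 50.5 and 46.9 CPM in epithelium (-3.95 ± 0.21, adjusted p = 0.0069). Odc1, the rate-limiting enzyme of polyamine synthesis, measured 477 and 748 CPM against 72.0 and 69.9 CPM (-3.07 ± 0.21, adjusted p = 0.0104). Both epithelial libraries lay close together and far below. Transcription regulators of the group were Maff (-4.67), Atf3 (-3.49), Tgif1 (-3.43), Fosl2 (-3.09) and Irf4 (-3.03), and the rest were Gramd3 (-3.72), Ccr7, the chemokine Cxcl10 (-3.36), Ubald2 (-3.14), Rnf157 (-2.94) and the efflux pump gene Abcb1b (-2.93). All but Atf3 lay lower in both epithelial libraries than in either lamina propria library, as did 28.0% of all genes tested. Atf3 measured 6.58 and 109 CPM in lamina propria control and KO and 0.988 and 8.35 CPM in epithelium.

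Libraries that did not choose these 15 genes showed how they stood elsewhere. All but Ccr7, 14 genes, were higher in both small intestine lamina propria libraries than in both spleen libraries of batch 2, where 24.7% of all tested genes were, and the same 14 were higher in both colon lamina propria libraries of batch 1 than in both spleen libraries of that batch, where 24.5% were. Ramp3 measured 826 and 868 CPM in the control and KO libraries of colon lamina propria of batch 1, 135 and 178 CPM in small intestine lamina propria, and 3.36 to 10.9 CPM in the 4 spleen libraries (unscaled CPM). Vps37b measured 598 to 1330 CPM in the 6 lamina propria libraries and 21.0 to 35.2 CPM in spleen. The epithelial libraries, at 5.27 CPM of Ramp3 and 53.0 CPM of Vps37b in control, stood nearer to spleen than to either lamina propria. Spleen was homogenised with a plunger, per the labels, and the intestinal tissues were dissociated with a kit, so organ and preparation cannot be told apart in these values either.

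**Figure D3:**
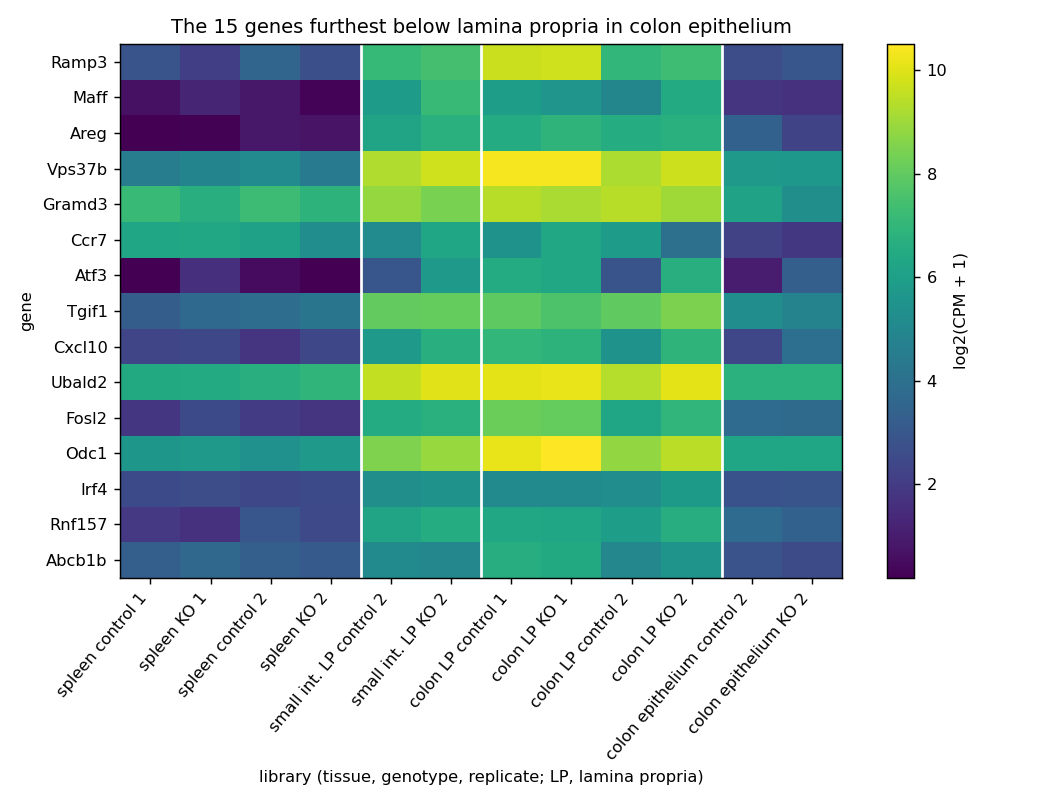
Colour gives log2(CPM + 1) of the 15 genes furthest below lamina propria in colon epithelium (rows) in T cells of all 12 libraries (columns, grouped by tissue and parted by white lines). The 6 lamina propria columns are bright for most rows, and the spleen and colon epithelium columns are dark; Ccr7 is the exception.

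Cyclic AMP acts on transcription through factors of the CREB family, which bind a palindrome called the cyclic AMP response element, and 2 of these 15 genes hold it in their promoters. They are shown because both genes are among the largest differences and share these letters. The element, TGACGTCA, reads the same on both strands and is in capitals; the windows run 5′ to 3′ on the gene's strand, upstream of the annotated start (RefSeq, GRCm38.p6), at chr5:91139493-91139590 for Areg and chr15:79347446-79347519 for Maff, both plus strand.
Areg: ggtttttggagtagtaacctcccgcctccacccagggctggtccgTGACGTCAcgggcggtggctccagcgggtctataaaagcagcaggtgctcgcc
Maff: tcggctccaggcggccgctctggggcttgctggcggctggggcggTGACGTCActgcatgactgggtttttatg
The first base of the element lies 61 bases before the start in Areg and 29 in Maff. The RefSeq start used for Maff lies inside the span of the gene in the mm10 gene annotation (chr15:79346621-79359076). In the 250 bases upstream, 2 of 12 genes matched among the 15 lower genes (16.7%) and 0 of 11 among the 15 higher genes hold it, against 3.38% of 8163 tested genes with an entry. The AP-1 motif TGANTCA, searched in the same windows on both strands, was held by 1 of the 12 lower genes (8.33%), 2 of the 11 higher genes (18.2%) and 5.06% of tested genes with an entry. A match describes the letters and shows neither binding nor use.

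The list of neuropeptide and cyclic AMP signalling, which includes Ramp3 and Areg, held 7 lower and 1 higher of 19 tested genes (median -0.48), against 11.2% and 7.91% of all genes. The phosphodiesterases that break down cyclic AMP, Pde4b (237 and 230 CPM in lamina propria control and KO, 36.4 and 37.1 CPM in epithelium; -2.67 ± 0.09, adjusted p = 0.0026) and Pde4d (-2.01), were lower in both pairs by nearly the same amount. Receptors that raise cyclic AMP did not share a side: the adenosine receptor Adora2a (-1.21) and the prostaglandin receptor Ptger2 (-0.72) were lower, and the prostaglandin receptor Ptger4 was not called (76.6 and 79.8 CPM against 104 and 77.7 CPM; 0.21, adjusted p = 0.34). Crem, a cyclic AMP-responsive repressor, measured 145 and 319 CPM against 37.0 and 31.8 CPM and missed the threshold (-2.64 ± 0.49, adjusted p = 0.0951). Vipr2, a receptor for vasoactive intestinal peptide that also raises cyclic AMP, was the higher member, at 0.274 and 0.658 CPM against 1.98 and 2.43 CPM (2.29). Calcrl, the receptor that pairs with Ramp3, was at 1.23 to 2.10 CPM in all 4 libraries (-0.48, adjusted p = 0.394).

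Genes induced by the antigen receptor and NF-κB were lower in epithelium in 17 of 40 tested members (median -0.99), against 11.2% of all genes. The 3 higher members (7.5%) are near the 7.91% of all genes. Tnfaip3, the NF-κB brake A20, measured 463 and 658 CPM in lamina propria control and KO and 94.1 and 94.3 CPM in epithelium (-2.55 ± 0.15, adjusted p = 0.00477), and was seen in 50% and 57.7% of lamina propria cells against 13.3% and 13.1% of epithelial cells at 1500 UMIs (72.8%, 70.8%, 23.7% and 19.5% before thinning). Nfkbiz (-2.62), Rel (-2.29) and the MAP kinase phosphatase Dusp4 (-3.20) were lower with it. Fosb measured 18.1 and 233 CPM against 2.31 and 34.0 CPM (-2.83), and its call was lost in every fit that left out a library (adjusted p up to 0.498 over 14 alternatives). In batch 1 colon lamina propria it stood at 140 CPM in control and 118 CPM in KO (unscaled). The higher members were Dusp2, Zfp36 (0.48) and Egr2, a transcription factor induced by antigen, at 2.74 and 5.0 CPM against 37.0 and 20 CPM (2.91 ± 0.50, adjusted p = 0.0498, up to 0.079 over 14 alternatives). Called or not, 10 of the 40 members had a log2 fold change above 0. Fos, Jun and Egr1 stood higher in epithelium within each pair and were not called. In unscaled CPM, control then KO, Fos measured 71.8 and 170 in lamina propria and 120 and 762 in epithelium. Jun measured 92.2 and 290 against 131 and 664, and Egr1 13.3 and 24.7 against 32.2 and 36.7. Nr4a1, the receptor signalling reporter gene, measured 164 and 317 CPM against 82.8 and 61.4 CPM and did not pass (-1.67 ± 0.50, adjusted p = 0.179).

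**Figure D4:**
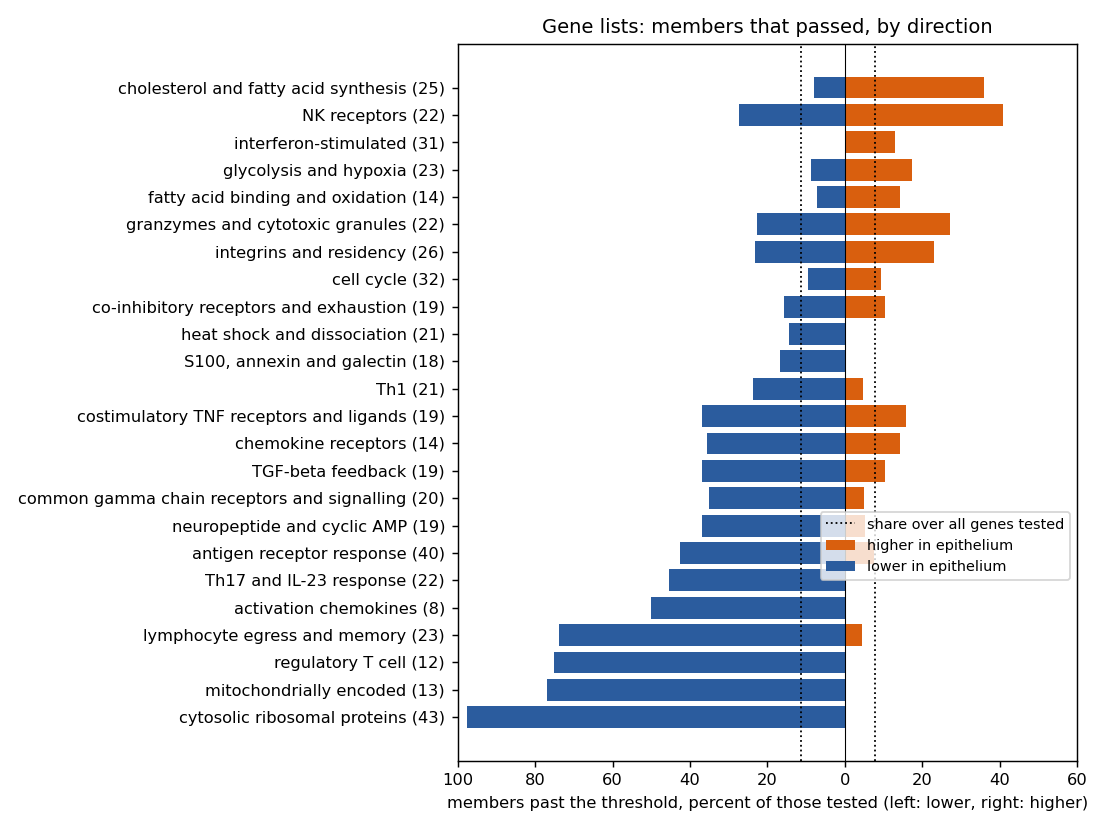
For each gene list (rows, with the number of members tested), bars give the percent of members that passed as lower (left, blue) or higher (right, orange) in epithelium, and dotted lines mark the shares over all genes tested, 11.2% and 7.91%. Ribosomal, mitochondrial, regulatory T cell and egress lists reach furthest to the left, and NK receptor and cholesterol lists furthest to the right.

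Costimulatory receptors and the regulatory T cell list were lower. Of 12 tested regulatory T cell genes 9 were lower and 0 higher (median -1.39), against 11.2% and 7.91% of all genes. Of 19 costimulatory TNF family members and their kin 7 were lower and 3 higher (median -0.80). Ctla4, an inhibitory receptor, measured 430 and 705 CPM in lamina propria control and KO and 83.6 and 86.5 CPM in epithelium (-2.69 ± 0.20, adjusted p = 0.0102), Tnfrsf4, which encodes OX40, 989 and 1150 CPM against 219 and 138 CPM (-2.61 ± 0.31, adjusted p = 0.0444), and Icos 641 and 563 CPM against 222 and 128 CPM (-1.83 ± 0.18, adjusted p = 0.0139). In each case both lamina propria libraries lay above both epithelial ones, as they did for 28.0% of all genes tested. Tnfrsf18 (-1.06), Ikzf2 (-1.68), Cd28 (-1.25) and Tnfsf8 (-1.75) were lower too. Foxp3, the regulator that defines the lineage, was at 5.12 and 2.37 CPM against 1.89 and 0.291 CPM (-1.76, adjusted p = 0.0291 by edgeR, up to 0.253 over 14 alternatives). These levels rest on 56, 18, 23 and 3 UMIs in the same order. When a library was left out, the log2 fold change of Foxp3 ran from -3.68 to -0.3. Ctla4, Icos, Tnfrsf4 and Tnfrsf18 are also known in activated T cells of other kinds. The ligand genes Tnfsf14 (1.30), Tnfsf10 (0.84) and Lta (0.92) were on the other side.

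Genes of Th17 cells and the interleukin-23 response were lower in 10 of 22 tested members and higher in 0 (median -1.03), against 11.2% and 7.91% of all genes. Il22, whose product signals to epithelial cells, measured 103 and 124 CPM in lamina propria control and KO and 15.3 and 27.6 CPM in epithelium (-2.45 ± 0.17, adjusted p = 0.00477), and was seen in 2.94% and 2.43% of lamina propria cells and 0.782% and 0.507% of epithelial cells at 1500 UMIs (3.73%, 3.53%, 1.01% and 0.941% before thinning). The transcription factor genes Rora (-1.52), Hif1a (-1.75) and Batf (-1.01) and the protease gene Furin (-1.04) were lower. Il17a measured 15.5 and 37.4 CPM against 11.7 and 8.73 CPM and did not pass (-1.24, adjusted p = 0.247). Il10, an anti-inflammatory cytokine, was lower at 2.83 and 12.1 CPM against 0.494 and 0.582 CPM (-3.64 ± 0.45, adjusted p = 0.0122).

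The Th1 list held 5 lower and 1 higher of 21 tested members (median 0.11), against 11.2% and 7.91% of all genes. Ifng measured 223 and 378 CPM in lamina propria control and KO and 497 and 303 CPM in epithelium, 2.23-fold higher in epithelium in the control pair and 0.801-fold in the KO pair (0.42 ± 0.56, adjusted p = 0.667). Tbx21, the Th1 transcription factor T-bet, measured 30.1 and 70.9 CPM against 69.1 and 68.1 CPM (0.56, adjusted p = 0.435). For both genes the tissues overlapped, and only the control pair had the higher value in epithelium. The interleukin-12 and interleukin-18 pathway genes Stat4 (-0.93) and Il18r1 (-0.75), the kinase gene Txk (-0.97) and Eomes (-1.91, at 1.32 to 16.0 CPM) were lower, and Ccl5 was the higher member.

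Activation chemokines were called lower in 4 of 8 tested members and higher in 0 (median -0.78), against 11.2% and 7.91% of all genes. The most abundant of them stood higher in epithelium and did not pass. Ccl4 measured 117 and 282 CPM in lamina propria control and KO and 2810 and 868 CPM in epithelium control and KO (3.10 ± 1.45, adjusted p = 0.36), Ccl3 17.6 and 40.8 CPM against 505 and 139 CPM (3.29 ± 1.45, adjusted p = 0.345), and Ccl1 27.5 and 66.4 CPM against 668 and 271 CPM (3.30 ± 1.22, adjusted p = 0.299). Both epithelial libraries lay above both lamina propria libraries for all 3, as they did for 29.2% of all genes tested. The log2 difference for Ccl4 was 4.58 in the control pair and 1.62 in the KO pair, and none of the 3 genes passed. Most UMIs of Ccl4 came from few cells. The 5% of cells with the most Ccl4 carried 78.6% to 91.3% of its UMIs in each library, and 1 epithelium control cell held 569. At 1500 UMIs Ccl4 was seen in 7.18% and 8.22% of lamina propria cells and 33.6% and 21.5% of epithelial cells (9.12%, 10.4%, 40.8% and 28.5% before thinning). Xcl1 (1.80, adjusted p = 0.55) and Tnf (1.95, adjusted p = 0.228) did not pass, while Cxcl10 and 3 scarce chemokines (Ccl20, Cxcl16 and Cxcl2, each at most 14.1 CPM) were lower.

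**Figure D5:**
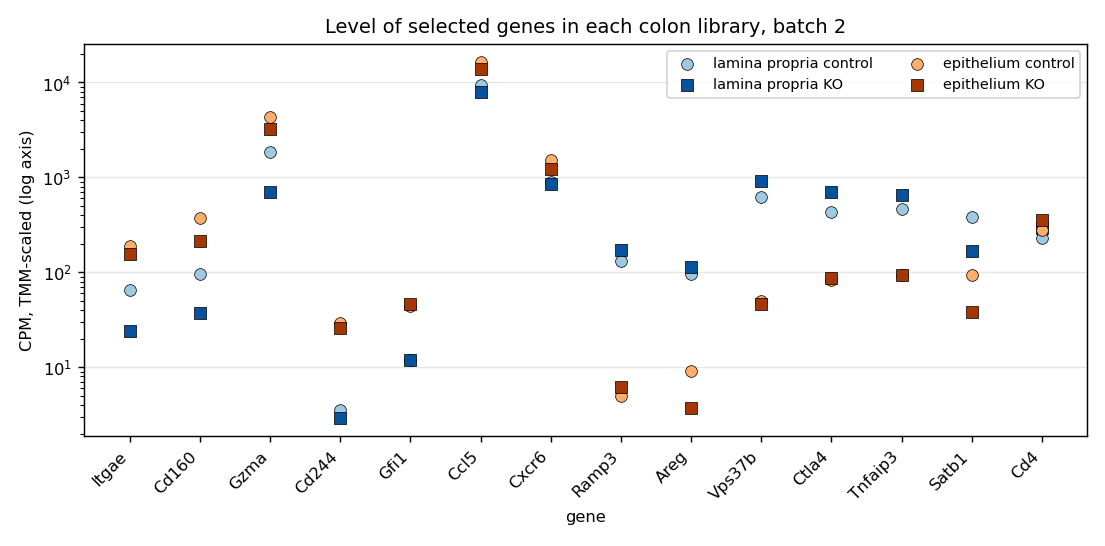
Points give the TMM-scaled CPM on a log axis of 14 genes in each of the 4 libraries (blue, lamina propria; orange, epithelium; light circles, control; dark squares, KO). The orange and blue points are parted for every gene shown but Cd4, and the blue points of Itgae, Cd160 and Gzma are themselves spread by genotype.

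Chemokine receptors and co-inhibitory receptors gave smaller counts, beside 11.2% lower and 7.91% higher of all genes. Of 14 chemokine receptor genes 5 were lower and 2 higher: Ccr2, an inflammatory homing receptor, measured 405 and 467 CPM in lamina propria control and KO and 197 and 202 CPM in epithelium (-1.12 ± 0.09, adjusted p = 0.00477), and Cxcr4 14.2 and 13 CPM against 1.73 and 0.291 CPM (-3.70 ± 0.46, adjusted p = 0.016). Cx3cr1 was higher with Cxcr6, at 1.74 and 2.50 CPM against 12.3 and 5.05 CPM (2.08, adjusted p = 0.0474). Of 19 co-inhibitory genes 3 (15.8%) were lower and 2 (10.5%) higher, close to the shares over all genes. The lower ones were Tigit, Ctla4 and Ikzf2, and the higher ones Cd160 and the ectoenzyme gene Cd38 (54.4 and 61.8 CPM against 106 and 107 CPM, 0.88 ± 0.10). The checkpoint genes Pdcd1 (28.0 and 49.7 CPM against 70.0 and 70.2 CPM, adjusted p = 0.0725) and Lag3 (41.9 and 105 CPM against 192 and 180 CPM, adjusted p = 0.212) did not pass.

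TGF-β, the cytokine known to induce Itgae, signals through receptors and SMAD proteins and induces its own inhibitors. Of 19 genes of that list 7 were lower and 2 higher (median -0.43), against 11.2% and 7.91% of all genes. The SMAD co-repressors Tgif1 (263 and 388 CPM in lamina propria control and KO, 34.8 and 24.7 CPM in epithelium) and Tgif2 (-2.91), the decoy receptor Bambi (-2.43), the receptor Tgfbr2 (-0.56) and the signal transducers Smad3 (-0.85) and Smad4 (-0.62) were lower. The receptor Tgfbr1 was higher, at 4.66 and 10.4 CPM against 16.0 and 23.2 CPM (1.45 ± 0.20, adjusted p = 0.0145). The feedback inhibitor Smad7 was not called (-0.43, adjusted p = 0.147).

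Genes of common gamma chain receptors and their signalling were lower in 7 of 20 tested members and higher in 1 (median -0.64), against 11.2% and 7.91% of all genes. The shared chain Il2rg measured 533 and 679 CPM in lamina propria control and KO and 348 and 388 CPM in epithelium (-0.71 ± 0.08, adjusted p = 0.011), and the death-promoting target Bcl2l11 55.5 and 58.8 CPM against 10.4 and 16.0 CPM (-2.14 ± 0.17, adjusted p = 0.00477). Il15ra, which presents the interleukin-15 that sustains intraepithelial lymphocytes, was the higher member, at 7.12 and 5.52 CPM against 12.8 and 12.3 CPM (0.99 ± 0.18, adjusted p = 0.0239).

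Housekeeping and metabolic lists moved by small amounts. Cytosolic ribosomal protein genes were lower in 42 of 43 members (median -0.31), with a summed level of 156000 and 143000 CPM in lamina propria and 123000 and 115000 CPM in epithelium, control then KO, and 10 of 13 mitochondrially encoded genes were lower (median -0.39). Genes of cholesterol and fatty acid synthesis were higher in 9 of 25 and lower in 2 (median 0.28): the enzymes Fdps (0.55) and Dhcr7 (0.82) were higher, and Insig1, which restrains the pathway, was lower (72.7 and 118 CPM against 35.9 and 36.0 CPM, -1.36 ± 0.19, adjusted p = 0.0197). In the glycolysis and hypoxia list 4 of 23 were higher and 2 lower, with the hexokinase gene Hk2 at 28.7 and 84.2 CPM against 10.6 and 18.0 CPM (-1.85). Cell cycle genes gave 3 higher and 3 lower of 32, and interferon-stimulated genes 4 higher and 0 lower of 31 (medians 0.16 and 0.0), against 7.91% higher and 11.2% lower of all genes.

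Heat shock genes differed more between the control and KO libraries of batch 2 than between the tissues. Hspa1a, the inducible HSP70, measured 39.0 and 4830 CPM in lamina propria control and KO and 27.5 and 1840 CPM in epithelium control and KO (-0.99, adjusted p = 0.181), and 3 of 21 list members were lower and 0 higher (median -0.90), against 11.2% and 7.91% of all genes. In batch 1 colon lamina propria Hspa1a stood at 857 CPM in control and 936 CPM in KO (unscaled), so the gap between genotypes was not seen there. The median difference was -0.06 in the control pair and -1.44 in the KO pair. Of the 50 cells with epithelial markers and no CD3 UMI in epithelium KO, 52.0% held an Hspa1a UMI. The part these transcripts have in other differences of the KO pair was not tested.

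Markers of cells other than T cells and epithelial cells differed in level between lists. The 12 macrophage markers summed to 28.7 and 25.8 CPM in lamina propria control and KO and 5.35 and 12.8 CPM in epithelium, with 4 lower and 1 higher of 5 tested. Apoe, a lipid carrier of macrophages, measured 12.3 and 9.60 CPM against 0.659 and 0.388 CPM, Lyz2, a myeloid lysozyme, 7.95 and 5.92 CPM against 0.494 and 0 CPM, and C1qb was at 0 in both epithelial libraries. The 11 stromal and endothelial markers summed to 63.8 and 50.8 CPM against 35.5 and 27.5 CPM, with 3 of 4 tested lower. The 7 B cell markers in the matrix summed to 200 and 261 CPM against 135 and 206 CPM, with 1 of 3 tested lower. The 12 NK and innate lymphoid markers summed to 232 and 299 CPM against 127 and 197 CPM, with 2 higher and 3 lower of 10 tested. Over all genes tested, 7.91% were higher and 11.2% lower. Only 1 of the 8 gamma delta T cell genes listed is in the matrix, at 0.582 CPM at most, so these cells cannot be measured here. The part of these cells in the differences above was not tested.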

How the data were processed

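Single-cell RNA libraries (10x Chromium, 3′ tags) of T cells were deposited as 1 matrix of 18601 genes in 32763 cells from 12 libraries. The values are raw UMI counts per gene and cell, per the file headers; the authors' filters on cells and genes are not given in the sources used here. Cell Ranger 2.0.2 and mm10 are named in the submitters' processing notes. Each cell was tied to its library and batch through the deposited cell table.

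Cells with a CD3 sum of at least 3 UMIs were summed per library. Genes passing filterByExpr were tested with edgeR 4.0.16 (TMM factors 0.917 to 1.08, quasi-likelihood test, robust, genotype and tissue as terms, Benjamini-Hochberg threshold 0.05) in R 4.3.3. The fit was tested on simulated data. Levels are TMM-scaled CPM, pair differences are log2(CPM + 1), and the SE of a log2 fold change was taken from the F statistic. No doublet caller was run, since cells with markers of other types were left out in an alternative. Alternatives used other cell rules, normalization, DESeq2 1.42.0, limma 3.58.1 (voom), other blocks and other sets of libraries.

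Genes named were the markers given, a fixed set of T cell genes, the 15 largest differences each way and up to 4 members of each list by p; other members of the lists were named after their values were seen. The members and lists were chosen with earlier results of these data known. All 4 libraries carry replicate number 2, so the number pairs nothing within the comparison and genotype forms the pairs. Overlapping genes and near-identical copies, such as Lilr4b, could share reads. Coordinates are from the mm10 gene annotation and promoter sequences from RefSeq (GRCm38.p6).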

Additional observations from a re-analysis of the deposited data

Results flagged for a closer look

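For 3 of the 152 named genes that were compared, the control pair and the KO pair differed by at least 1 on the log2 scale in opposite directions. Epcam, an adhesion molecule of epithelial cells, differed by -1.43 (epithelium minus lamina propria) in the control pair and by 3.64 in the KO pair. Reg3b differed by -3.84 in the control pair and by 9.15 in the KO pair. Tyrobp, a signalling adaptor of NK and myeloid cells, differed by -1.19 in the control pair and by 2.0 in the KO pair. With 1 library for each tissue and genotype, the difference between the pairs was not tested. All 3 are at their highest in epithelium KO, the library in which the epithelial markers summed to 1750 CPM.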

How the results depend on the processing

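The counts of 848 higher and 1200 lower genes moved most when a library was left out. Leaving out 1 of the 4 libraries, without the genotype block, gave 39 higher and 276 lower genes without lamina propria control, 11 and 62 without lamina propria KO, 76 and 55 without epithelium control, and 0 and 0 without epithelium KO. In the fit of all 12 libraries with the replicate block (890 higher and 1086 lower, 1545 of the calls shared), leaving out 1 colon library of batch 2, an alternative chosen after seeing the data, gave 788 higher and 1088 lower without lamina propria control, 503 and 741 without lamina propria KO, 571 and 548 without epithelium control and 146 and 280 without epithelium KO. The replicate number cannot pair the 4 libraries, which all carry the same one, and genotype is the pairing used; without the genotype block 153 were higher and 359 lower, and 501 of these 512 calls were among the 2048. All cells without the CD3 rule gave 305 and 609, no expression filter 353 and 641, and DESeq2 180 and 560. A log2 difference of at least 1 left 264 and 465, and a mean of at least 20 CPM, also chosen after seeing the data, left 417 higher and 832 lower. Before thinning, Itgae was seen in 15%, 4.75%, 37.7% and 29.9% of cells of lamina propria control, lamina propria KO, epithelium control and epithelium KO, Cd160 in 17.9%, 5.74%, 48.6% and 29.6%, and Gzma in 41.6%, 26.5%, 59.0% and 44.5%.

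Directions turned for 14 of the 152 named genes that were compared (log2 fold changes, the cause was not tested). Without the CD3 rule, Cd8b1 was at -0.12 and Fcer1g at -1.07; thinned, Cd8b1 was at -0.54; with DESeq2, Tyrobp was at -0.77 and Fcer1g at -0.14; with a CD3 sum of 5 or more, Ahr was at 0.02. Cd69 was at -0.02 without the genotype block and -0.00 over the 8 libraries of batch 2. Without lamina propria control, Klf2 was at 0.01, Cd69 at -0.36 and Tbx21 at -0.06, and Klf2 at 0.02 over 12 libraries. Without lamina propria KO, Ahr was at 0.13 and Hspa1a at 4.58, and over 12 libraries at 0.02 and 1.24. Without epithelium control, Cd8b1 was at -0.10, Ifng at -0.01 and Ptger4 at -0.03, and over 12 libraries Ifng was at -0.19, Xcl1 at -0.22 and Ptger4 at -0.01. Without epithelium KO, Reg3b was at -3.12, Tyrobp at -5.46, Fcer1g at -4.06, Cd69 at -0.10, Ahr at 0.09 and Epcam at -1.46. Over 12 libraries without it, Klf2 was at 0.03, Reg3b at -4.03, Krt8 at -0.45, Tyrobp at -4.97, Fcer1g at -2.64, Ahr at 0.17 and Epcam at -1.84. Depth limits the genes of few UMIs: Cd8a rested on 19 and 6 UMIs in lamina propria control and KO.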
